A study of Mus musculus with 6 samples.

Results

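The interferon-inducible p200 family of mouse (also called PYHIN or HIN-200) was examined in bone marrow-derived macrophages (BMDMs) that had been cultured with neutrophils of 2 *Cd177* genotypes. The family was taken as 10 named genes, *Ifi203*, *Ifi204*, *Ifi205*, *Ifi207*, *Ifi208*, *Ifi209*, *Ifi211*, *Ifi213*, *Mndal* and *Aim2*, found by gene symbol among the 55335 genes of the expression table and not by their levels. All 10 lie in one cluster on chromosome 1 and all 10 passed the filter on low values. BMDMs of *Cd177* WT mice were grown for 7 days with 25 ng/ml M-CSF, the growth factor that turns marrow cells into macrophages. Neutrophils were collected with magnetic beads from injured spinal cords (spinal cord injury, SCI) 3 days post injury (dpi), either from *Cd177* WT mice or from mice with a *Cd177* knockout (KO), so the knockout was in the added neutrophils and never in the sequenced BMDMs. After 24 h together, Ly6G-negative cells were sorted and sequenced, 3 libraries per group. Adult male mice on a C57BL/6 background were used, and no culture without neutrophils is among the libraries.

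The p200 proteins are built from a pyrin domain, which binds other pyrin domains, and 1 or more HIN domains, which bind DNA. Some members carry only one kind of domain. AIM2 senses double-stranded DNA in the cytosol and assembles an inflammasome through the adaptor ASC, whereas most other members are found mainly in the nucleus. The genes owe their name to induction by interferon, which acts in macrophages through factors that include STAT2 and IRF9.

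**Figure D1:**
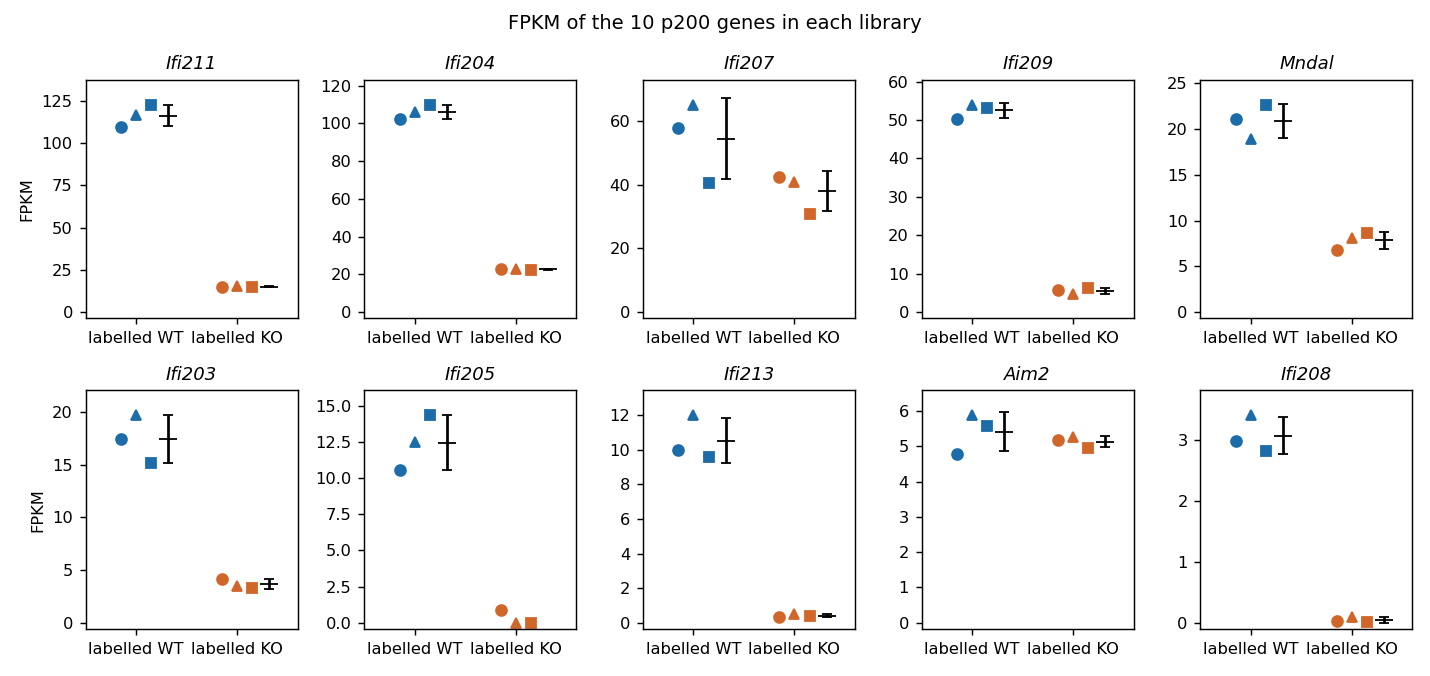
FPKM (vertical axis, from 0) of each of the 10 p200 genes in the 3 WT-labelled libraries (blue) and the 3 labelled KO (orange). Circles, triangles and squares are replicates 1, 2 and 3, and the bar beside them is the mean ± SD, left out where a library is listed at 0. The groups are separate in 8 panels and overlap for *Ifi207* and *Aim2*.

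The 6 libraries stood apart by group. Pearson correlations of log2 values lay between 0.967 and 0.985 within groups and between 0.905 and 0.917 across them. A rough depth implied by the low values was 17600000 to 20300000 fragments per library. *Cd177* itself had 0.544, 0.309 and 0.521 FPKM in the WT-labelled libraries and 1.79, 1.84 and 2.28 FPKM in the KO-labelled ones, against the direction of the group names. The group names give the genotype of the added neutrophils, while the BMDMs carry an intact *Cd177*. Which cells the *Cd177* transcripts came from was not tested, so this gene could not check the labels. Groups are named below as labelled. Macrophage markers were abundant in every library, with a summed level of 5717 to 6808 FPKM over 7 genes in the WT-labelled libraries and 7135 to 7808 FPKM in the KO-labelled ones, most of it *Lyz2*. *Fcgr1*, a high-affinity antibody receptor gene of that list, was lower, at 121 against 33.8 FPKM on average (log2 difference -1.83). Of 13 neutrophil markers, 11 were above every WT-labelled library in all 3 KO-labelled libraries. Among the 10 markers that passed the filter, 9 were separate in that direction. Such separation was common, seen in 37.5% of all 13367 tested genes. The summed level of the 13 markers was 192 to 252 FPKM against 524 to 537 FPKM, and *Ly6g* was listed at 0 in each WT-labelled library. *Mmp8*, a collagenase gene of the same list, was lower in the KO-labelled libraries (21.9 against 9.80 FPKM). B lymphocyte markers summed to 0.711 to 1.35 FPKM against 13.1 to 15.4 FPKM over 6 genes, nearly all of it *Ighm* and *Cd79b*. *Cd79a* was at 0 in the WT-labelled libraries. The T lymphocyte list of 4 genes summed to 1.44 to 2.12 FPKM against 5.07 to 6.03 FPKM, nearly all of it *Cd4* (mean 1.76 against 5.56 FPKM). *Cd3e* averaged 0.0140 against 0.0125 FPKM, and *Cd3d* was at 0 in all 6. The 5 conventional dendritic cell markers stayed at or under 1.16 FPKM in sum, with *Flt3* at 0 in all 6 libraries. The 5 spinal cord markers did not exceed 7.06 FPKM in sum, with *Snap25* and *Olig2* at 0. The 3 plasmacytoid dendritic cell markers summed to 365 to 512 FPKM against 108 to 119 FPKM, nearly all of it *Bst2*, a gene that interferon induces in many cells, while *Siglech* was at 0 in the WT-labelled libraries. The part of other cells in the p200 results was not tested. In bulk RNA, fewer cells of a type and less RNA per cell cannot be told apart.

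The first question was which p200 genes differed between BMDMs given *Cd177* WT and *Cd177* KO neutrophils. Of the 10 genes, 8 were lower in the KO-labelled libraries and 0 were higher at an adjusted p under 0.05 (limma on log2(FPKM + 0.5), Benjamini-Hochberg over 13367 genes), and *Ifi207* and *Aim2* did not pass. Of all tested genes 10.5% were lower, 27.1% were higher and 37.6% passed in either direction. The same 8 genes had every KO-labelled library below every WT-labelled library, against 14.4% of all tested genes. The median log2 difference of the 10 genes was -2.45, beside 0.19 for all tested genes. That shift of the whole table depends on how libraries are scaled. With median-of-ratios scaling it was -0.00046 and the calls split into 16.6% lower and 16.1% higher, and the count of p200 genes that were lower rose from 8 to 9. The 3 libraries of a group are not stated to come from separate cultures, so the p-values measure the spread between these libraries, which may be technical.

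*Ifi204* (ENSMUSG00000073489, chr1:173747293-173766943, minus strand, GRCm38) encodes a pyrin and HIN protein that binds DNA in the nucleus and cytoplasm and has been tied to STING-dependent interferon production. It had 102, 106 and 110.0 FPKM in the 3 WT-labelled libraries and 22.6, 22.9 and 22.5 FPKM in the 3 KO-labelled ones. The 3 values of each group lie close together and the groups are far apart. Its mean fell from 106 ± 3.90 to 22.7 ± 0.22 FPKM (SD, n = 3 each), to 21.4% of the level in the WT-labelled libraries, and the log2 difference was -2.20 (95% interval -2.37 to -2.03, standard error 0.07, limma adjusted p = 3.6e-06).

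*Ifi211* (ENSMUSG00000026536, chr1:173896345-173913046, minus strand), listed in RefSeq under the older symbol *Mnda*, was the most abundant p200 gene of the WT-labelled libraries. Its values there were 109.8, 116 and 123 FPKM, and they were 15.0, 15.2 and 14.8 FPKM in the KO-labelled libraries. No library of one group comes near the other group. The mean fell 7.76-fold, from 116 ± 6.49 to 15.0 ± 0.185 FPKM (SD, n = 3 each), and its log2 difference was -2.91 (95% interval -3.10 to -2.73, limma adjusted p = 2.08e-06).

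*Ifi209* (ENSMUSG00000043263, chr1:173630917-173647928, plus strand), formerly *Pyhin1*, had 50.3, 54.0 and 53.2 FPKM in the WT-labelled libraries and 5.62, 4.76 and 6.36 FPKM in the KO-labelled ones. Its interval does not overlap that of *Ifi207*, its neighbour in abundance. The mean went from 52.5 ± 1.98 to 5.58 ± 0.798 FPKM (SD, n = 3 each), a 9.41-fold fall, and the log2 difference was -3.13 (95% interval -3.40 to -2.86, limma adjusted p = 5.39e-06).

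*Ifi203* (ENSMUSG00000039997, chr1:173920407-173942672, minus strand) encodes a nuclear member of the family. It had 17.4, 19.7 and 15.1 FPKM against 4.17, 3.51 and 3.31 FPKM, which leaves a wide gap between the groups. The log2 difference was -2.10 (95% interval -2.41 to -1.79, limma adjusted p = 5.49e-05), close to that of *Ifi204*.

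*Mndal* (ENSMUSG00000090272, chr1:173849126-173942491, minus strand), named for its likeness to the myeloid nuclear differentiation antigen, had 21.1, 18.9 and 22.7 FPKM against 6.79, 8.12 and 8.59 FPKM. The groups do not overlap, but more of the level remained than for any other of the 8 genes, 37.5% of that in the WT-labelled libraries. Its log2 difference was -1.36 (95% interval -1.64 to -1.08, limma adjusted p = 0.000247), and this interval does not overlap that of *Ifi203*. The annotated *Mndal* gene spans all of *Ifi211* and 99.2% of *Ifi203* on the same strand, so fragments could be assigned to either where exons are shared.

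*Ifi205* (ENSMUSG00000054203, chr1:174011998-174031810, minus strand), whose product is known to control expression of ASC, had 10.5, 12.5 and 14.3 FPKM in the WT-labelled libraries. Among the KO-labelled libraries it was listed at 0.870 FPKM in replicate 1 and at 0 in replicates 2 and 3. A value of 0 in such a table can be a failed estimate, and *Ifi205* shares sequence with *Ifi211*, so no fold is given. On the log2(FPKM + 0.5) scale the difference was -4.20 (95% interval -5.14 to -3.26, limma adjusted p = 0.000348), the widest interval in the family.

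*Ifi213* and *Ifi208* were once called *Pydc4* and *Pydc3*, for pyrin domain containing. *Ifi213* (ENSMUSG00000073491, chr1:173566283-173599274, minus strand) had 9.97, 12.0 and 9.57 FPKM in the WT-labelled libraries and 0.350, 0.501 and 0.361 FPKM in the KO-labelled ones, 3.84% of the level in WT. Its log2 difference was -3.60 (95% interval -3.91 to -3.30, limma adjusted p = 5.34e-06). *Ifi208* (ENSMUSG00000066677, chr1:173673675-173698395, plus strand) had the lowest mean of the family in either group, with 2.98, 3.40 and 2.81 FPKM against 0.0322, 0.0936 and 0.0101 FPKM. At the implied depth these last 3 values would be about 1.7, 5.7 and 0.6 fragments. That is only a rough scale, since counts could not be recovered. The log2 difference of *Ifi208* was -2.71 (95% interval -3.03 to -2.38, limma adjusted p = 2.14e-05), a scale that understates the change of so low a gene, and its size moved between -4.48 and -1.96 with the settings tried.

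*Ifi207* (ENSMUSG00000073490, chr1:173723427-173741747, minus strand) encodes another pyrin and HIN protein and lies within the cluster, next to *Ifi204*. It had 57.9, 65.2 and 40.5 FPKM in the WT-labelled libraries and 42.3, 40.9 and 31.0 FPKM in the KO-labelled ones. Replicate 3 of the WT-labelled libraries lies below 2 of the KO-labelled libraries, and so the groups overlap. The means were 54.5 ± 12.7 and 38.0 ± 6.19 FPKM (SD, n = 3 each), and the log2 difference of -0.50 (95% interval -0.98 to -0.02) did not pass (limma adjusted p = 0.0956). Without WT replicate 3 it was -0.70 (limma adjusted p = 0.0129), and with median-of-ratios scaling it was -0.71 (limma adjusted p = 0.0305).

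*Aim2* (ENSMUSG00000037860, chr1:173350879-173466040, plus strand), the inflammasome sensor, had 4.80, 5.88 and 5.57 FPKM against 5.18, 5.27 and 4.96 FPKM. The 3 values of the KO-labelled libraries lie within the range of the WT-labelled ones. Its means were 5.42 ± 0.558 and 5.14 ± 0.162 FPKM (SD, n = 3 each) and its log2 difference was -0.07 (95% interval -0.31 to 0.18, limma adjusted p = 0.651). This interval leaves out any change as large as that of the 8 genes that fell.

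**Figure D2:**
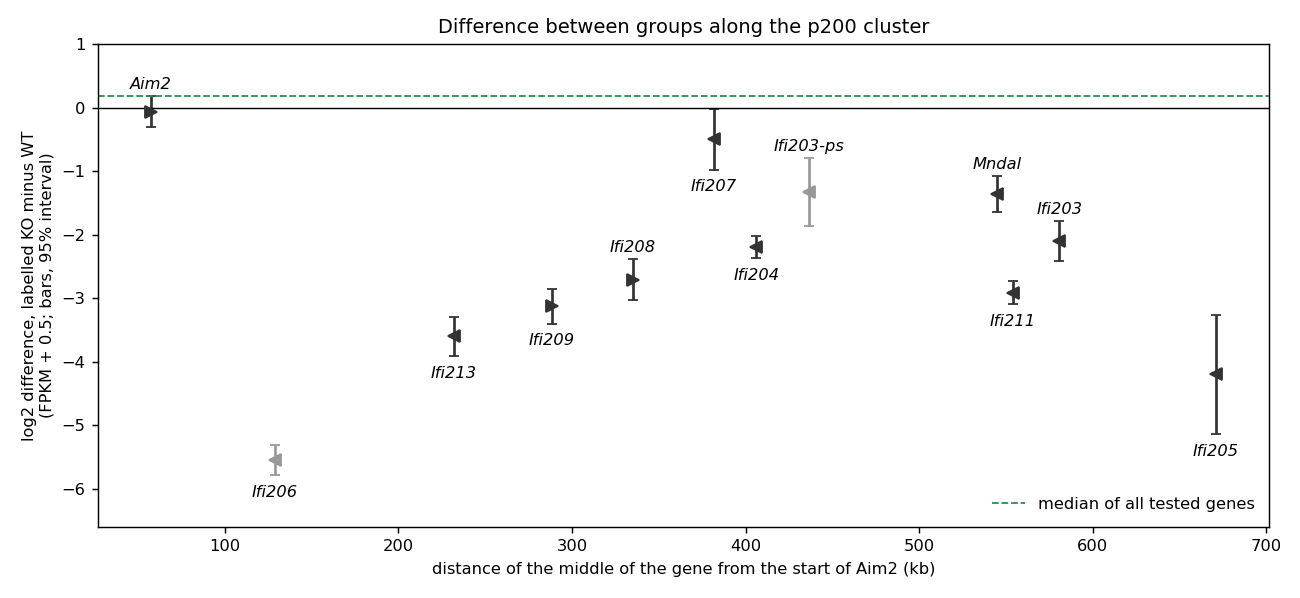
Log2 difference of FPKM + 0.5, labelled KO minus labelled WT (vertical axis, bars the 95% interval), against the distance in kb of the middle of each gene from the start of *Aim2* (horizontal axis). Black marks are the 10 p200 genes, grey marks are *Ifi206* and *Ifi203-ps*, arrowheads point in the direction of transcription, and the dashed line is the median of all tested genes at 0.19. *Aim2* and *Ifi207* are near 0 while genes on either side of *Ifi207* are well below it.

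Along the chromosome, the 10 genes span 681 kb, with *Aim2* at one end and *Ifi205* at the other. The difference did not follow position. *Ifi207*, at -0.50, lies between *Ifi208* at -2.71 and *Ifi204* at -2.20, and *Aim2*, at -0.07, lies beside *Ifi206*, a family gene outside the 10. *Ifi206* (ENSMUSG00000037849, chr1:173468485-173491041) had 40.8, 40.6 and 35.3 FPKM against 0.385, 0.325 and 0.307 FPKM. Its log2 difference of -5.55 (limma adjusted p = 5.52e-07) was larger than that of any of the 10 genes. *Ifi203-ps*, a pseudogene copy, had 1.95, 2.24 and 1.17 FPKM against 0.557, 0.349 and 0.284 FPKM, with a log2 difference of -1.33 (limma adjusted p = 0.00418). In total 51 other genes of the table lay between the members or within 500 kb of the outermost ones. Only *Ifi206* and *Ifi203-ps* passed the filter and both were lower, while 37 were listed at 0 in all 6 libraries. *Ifi214*, a further family gene, was under the filter with 0.698, 0.749 and 0.913 FPKM against 0.0209, 0.00608 and 0.0382 FPKM. *Ifi202b*, a HIN protein without a pyrin domain that is known to restrain AIM2, was listed at 0 in all 6 libraries.

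**Figure D3:**
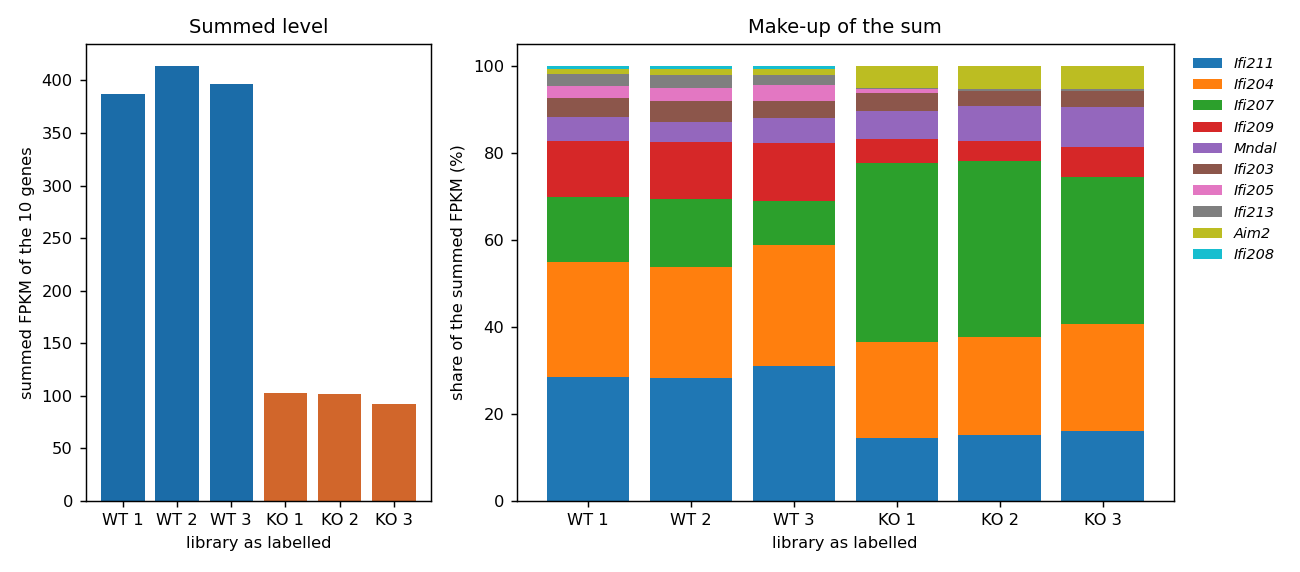
Left, summed FPKM of the 10 p200 genes (vertical axis, from 0) in each library as labelled. Right, the share of each gene in that sum, in percent. The sum is 387 to 414 FPKM in the WT-labelled libraries and 91.9 to 103 FPKM in the KO-labelled ones, and the green block, *Ifi207*, is 13.6% of the sum on average in the first group and 38.4% in the second.

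Because FPKM is scaled to transcript length, levels can be set side by side between genes, within a limit. Values of genes that share sequence, *Ifi211* most of all, are uncertain as values of single genes, as set out below. Summed over the 10 genes the level was 387, 414 and 397 FPKM in the WT-labelled libraries and 103, 101 and 91.9 FPKM in the KO-labelled ones, a 4.05-fold difference of the means. *Ifi211* and *Ifi204* led in the WT-labelled libraries, and their ranges were separate from the next pair, *Ifi207* and *Ifi209*. *Mndal* and *Ifi203* followed, then *Ifi205* and *Ifi213*, then *Aim2* and last *Ifi208*. Within each of these pairs in the WT-labelled libraries the ranges overlapped, except that *Aim2* was above *Ifi208* in all 3. The order differed in the KO-labelled libraries, where *Ifi207* was the most abundant gene, followed by *Ifi204*, *Ifi211* and *Mndal*, each separate from the next. *Ifi209* and *Aim2* overlapped there, *Ifi203* came below them, and *Ifi213*, *Ifi205* and *Ifi208* were at the bottom.

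The share of each gene in this sum was then compared, with the same limit for genes that share sequence. In this measure a gene's share is larger where the others are lower. *Ifi207* held 15.0%, 15.8% and 10.2% of the sum in the WT-labelled libraries and 41.1%, 40.4% and 33.7% in the KO-labelled ones, a difference of 24.8 percentage points, while its own FPKM was not higher. *Ifi211* held 28.4%, 28.1% and 31.0% against 14.5%, 15.0% and 16.1%, a difference of -13.9 points. The share of *Aim2* was 1.24%, 1.42% and 1.40% against 5.03%, 5.21% and 5.40%, although its own level did not pass the test. *Mndal*, whose FPKM fell, differed by 2.75 points in its share, while *Ifi209* differed by -7.46 points and *Ifi204* by -3.56 points. *Ifi204*, *Ifi211* and *Ifi209* together made up 68.9% ± 2.84 of the sum in the WT-labelled libraries and 44.0% ± 3.12 in the KO-labelled ones (SD, n = 3 each). For 9 of the 10 shares the groups did not overlap, with a two-sided exact permutation p = 0.1, the smallest that 3 against 3 libraries allow (adjusted p = 0.111 over 10 shares), so no share could reach 0.05. The share of *Ifi203* had overlapping groups and a p of 0.2 in the same exact permutation test.

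Some genes of the family share stretches of sequence, which bears on how fragments were assigned. Of the stretches of 100 bases in *Ifi211* transcripts, 56.9% also occur in transcripts of other genes, 37.2% in those of *Ifi205*. The figure was 16.9% for *Ifi209*, all shared with *Ifi214*, 15.0% for *Ifi205*, shared with *Ifi211*, and 10.7% for *Ifi204*. It was 6.4% or less for *Mndal*, *Ifi208*, *Ifi213*, *Ifi203* and *Ifi207*, and no such stretch of *Aim2* was shared. With stretches of 50 bases the shares were higher, at 72.8% for *Ifi211*, 33.7% for *Ifi209*, 20.9% for *Ifi208*, 20.0% for *Ifi204*, 19.6% for *Mndal*, 18.6% for *Ifi205*, 15.6% for *Ifi213* and 12.4% for *Ifi203*. They were 7.3% for *Ifi207* and 0.7% for *Aim2*. How the fragments of shared stretches were assigned is not given in the sources used here, so values of the sharing genes are uncertain as values of single genes. On the opposite strand, *Aim2* overlaps *Cadm3*, which had at most 0.0871 FPKM.

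Most genes of the cluster carried the letters of an interferon response element next to their start. The core of the interferon-stimulated response element (ISRE), the motif bound by the complex that holds STAT2 and IRF9 and by other IRFs, was searched as GAAA and GAAA with any 2 bases between them, or TTTC and TTTC likewise, which covers both strands, in the bases from 250 before to 50 after annotated starts (RefSeq, GRCm38.p6). Windows were found for 9 of the 10 genes, all but *Ifi204*, and 7 of these genes held a match. Counted by window, 8 of their 11 windows held a match, beside 3.44% of all 32851 windows. The 7 were *Ifi203*, *Ifi205*, *Ifi207*, *Ifi208*, *Ifi211*, *Ifi213* and *Mndal*. *Ifi209* and *Aim2* had none, though each window held a stretch with 1 mismatch to the core, as did 35.4% of all windows. The stretches below show which copies are alike and which are not. Each is 60 bases, written 5′ to 3′ on the strand of the gene with the core in capitals. Those of *Ifi209* and *Aim2*, which lack a core, are 60 bases that end a short way before the start. Both hold 10 bases with 1 mismatch to the core, taaatcgaaa in *Ifi209* and tttctttgtc in *Aim2*. A match is a likeness of letters and not proof of a bound site.
Ifi203 (chr1:173942493-173942552, minus strand): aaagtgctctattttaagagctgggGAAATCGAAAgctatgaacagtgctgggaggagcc
Ifi211 (chr1:173913049-173913108, minus strand): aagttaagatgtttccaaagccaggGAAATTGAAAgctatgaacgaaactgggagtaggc
Ifi205 (chr1:174031855-174031914, minus strand): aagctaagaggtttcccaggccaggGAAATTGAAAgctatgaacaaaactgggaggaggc
Ifi207 (chr1:173741816-173741875, minus strand): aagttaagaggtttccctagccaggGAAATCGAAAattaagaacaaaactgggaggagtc
Ifi208 (chr1:173673582-173673641, plus strand): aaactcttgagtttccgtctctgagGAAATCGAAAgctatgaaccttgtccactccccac
Ifi206 (chr1:173491324-173491383, minus strand): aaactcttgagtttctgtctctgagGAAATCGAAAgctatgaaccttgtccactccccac
Ifi209 (chr1:173630779-173630838, plus strand): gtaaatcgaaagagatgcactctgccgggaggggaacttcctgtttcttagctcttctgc
Aim2 (chr1:173420524-173420583, plus strand): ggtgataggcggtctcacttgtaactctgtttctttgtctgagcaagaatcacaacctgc

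On the strand of the gene, the core began 35 bases before the start in *Ifi203*, 36 in *Mndal*, 37 in *Ifi211*, 41 in *Ifi207*, 58 in *Ifi208*, 73 in *Ifi213* and 134 in *Ifi205*. *Ifi203* and *Mndal* each had 2 windows, for different annotated starts, and the positions are for 1 of them. The other window of *Ifi203* held no match, and that of *Mndal* held a match on the opposite strand, 54 bases before its start. *Ifi205* also held an opposite-strand match, at base 24 after its start. The stretch of *Mndal* (chr1:173880189-173880248) was identical to that of *Ifi203* over all 60 bases, and the stretch of *Ifi213* (chr1:173599311-173599370) was identical to that of *Ifi208*. The stretch of *Ifi206* differed from that of *Ifi208* at 1 of 60 bases. Those of *Ifi205*, *Ifi207* and *Ifi211* differed from each other at 6 to 10 bases. Stretches from different ones of these 3 groups of p200 genes differed at 19 to 31 of 60 bases. The exact form GAAATCGAAA, picked after the matches had been seen, was present on either strand in 16 of all windows, and 5 of the 10 genes were among those that held it. The interferon gamma-activated site, searched as TTCNNNGAA, was in 8.3% of all windows and in 0 of the windows of the family.

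**Figure D4:**
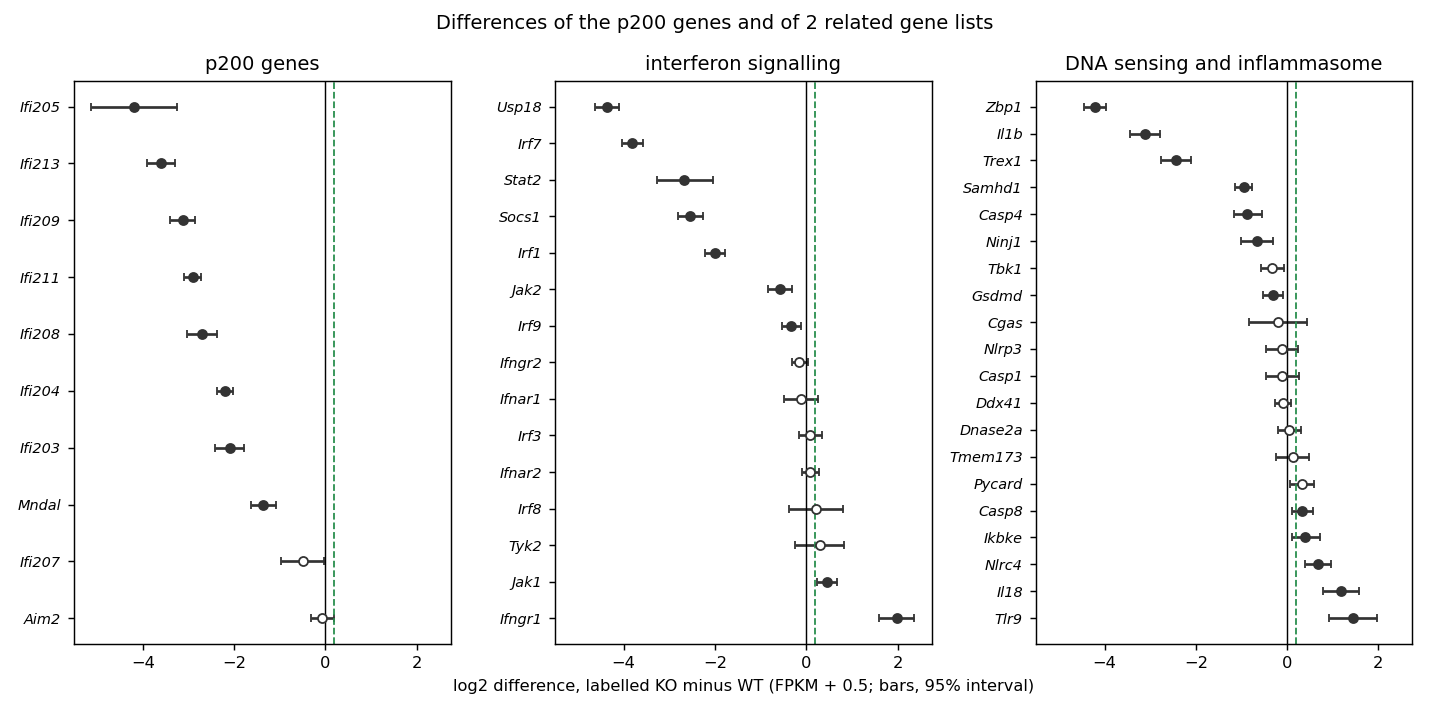
Log2 difference of FPKM + 0.5, labelled KO minus labelled WT (horizontal axis, bars the 95% interval), for the p200 genes, interferon signalling genes and 20 tested DNA sensing and inflammasome genes. Filled points passed an adjusted p under 0.05, open points did not, and the dashed line is the median of all tested genes at 0.19. The p200 genes lie to the left of 0, while the 2 other lists spread to both sides.

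The interferon pathway was examined next, in 20 listed genes of which 16 passed the filter. Of these 16, 8 were lower, 2 were higher and 6 did not pass, with a median log2 difference of -0.24, beside 10.5% lower and 27.1% higher over all tested genes. The ligands were barely seen: *Ifnb1*, *Ifna4* and *Ifng* were at 0 in every library except WT replicate 3, which had 0.0740, 0.0847 and 0.105 FPKM, and *Ifna2* was at 0 throughout. The receptor genes of type I interferon did not pass, with log2 differences of -0.11 for *Ifnar1* (limma adjusted p = 0.621) and 0.09 for *Ifnar2* (limma adjusted p = 0.384). *Ifngr1*, a chain of the interferon gamma receptor, was higher in the KO-labelled libraries, at 13.5, 15.2 and 11.2 FPKM against 57.8, 60.5 and 43.9 FPKM, a log2 difference of 1.98 (limma adjusted p = 0.000191). The kinase genes were divided, with *Jak2* lower at -0.57 and *Jak1* higher at 0.45, the latter not passing under median-of-ratios scaling.

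Several factors that bind interferon response elements, and both feedback genes of the list, were lower. *Irf7*, which amplifies type I interferon production, had 40.5, 41.6 and 41.9 FPKM against 2.55, 2.74 and 2.19 FPKM, a difference of -3.81 (limma adjusted p = 1.86e-06). *Stat2* fell by 2.67 and *Irf1* by 1.99 on the log2 scale. *Irf9*, whose product binds DNA together with STAT2, had 9.09, 8.41 and 8.22 FPKM against 7.07, 6.79 and 6.30 FPKM (log2 difference -0.33, limma adjusted p = 0.0273), a call that was lost when values were rescaled to TPM. *Usp18*, which restrains type I receptor signalling, fell by 4.37 and *Socs1*, an inhibitor of JAK kinases, by 2.55 on the log2 scale. *Irf3* and *Irf8* did not pass, with differences of 0.09 and 0.21.

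The next list held 20 tested genes of DNA sensing and the inflammasome, pathways in which some p200 proteins are known to act. Of these 20 genes, 7 were lower, 5 were higher and 8 did not pass, with a median of -0.11. Over all tested genes 10.5% were lower and 27.1% were higher. With median-of-ratios scaling 9 were lower and 3 were higher, beside 16.6% and 16.1% over all tested genes. *Zbp1*, a sensor of nucleic acids that is induced by interferon, had 37.8, 36.3 and 38.7 FPKM against 1.50, 1.77 and 1.38 FPKM and fell by 4.22 on the log2 scale (limma adjusted p = 1.68e-06). *Trex1*, a nuclease that degrades cytosolic DNA, fell by 2.44, and *Samhd1*, which lowers nucleotide pools, by 0.95. *Il1b*, the cytokine gene whose product inflammasomes release, differed by -3.11 (limma adjusted p = 1.27e-05). *Il18*, the other such cytokine, went the opposite way, with 2.09, 2.27 and 3.41 FPKM against 6.07, 6.40 and 6.62 FPKM and a log2 difference of 1.17 (limma adjusted p = 0.00197). *Tlr9*, a receptor for DNA in endosomes, was higher by 1.45 and the receptor gene *Nlrc4* by 0.68. *Ikbke* and *Casp8* were higher by 0.40 and 0.33, calls that were lost under all 4 other scalings for *Ikbke* and under median-of-ratios and upper-quartile scaling for *Casp8*.

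The core of the AIM2 pathway did not pass. *Pycard*, which encodes ASC, had 12.8, 12.1 and 10.1 FPKM against 14.2, 14.5 and 15.5 FPKM, with a log2 difference of 0.33 (limma adjusted p = 0.0512) and groups that do not overlap. *Casp1*, the protease recruited by ASC, had a difference of -0.11 (95% interval -0.47 to 0.26). The sensor gene *Cgas* and *Tmem173*, which encodes STING, had differences of -0.20 (95% interval -0.83 to 0.43) and 0.12 (95% interval -0.24 to 0.48). The pore-forming substrate of inflammatory caspases, *Gsdmd*, was lower by a log2 difference of -0.31, the inflammatory caspase gene *Casp4* by -0.87 and *Ninj1*, which ruptures the membrane of dying cells, by -0.66.

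Other interferon-induced families were set beside these values. Over all tested genes 10.5% were lower and the median was 0.19. All 5 tested IFIT genes were lower, with a median log2 difference of -5.22 against -2.45 for the p200 genes. Of 8 tested OAS genes 7 were lower, with a median of -2.47, and of 9 tested GBP genes 8 were lower, with a median of -1.97. *Oas1c*, at -0.10, and *Gbp8*, at 0.32, were the members of those families that did not pass, as *Aim2* and *Ifi207* were here. The difference between families was not tested.

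The genes outside all lists whose profile over the 6 libraries was nearest to the mean p200 profile were *Dhx58*, *Serpinb2*, *Tmeff1*, *Has2* and *Grina*. Likeness was the Euclidean distance between centred log2 values, among the 6762 genes whose mean was 5 FPKM or more. *Dhx58*, which encodes the RNA helicase LGP2, was nearest, at a distance of 0.153, with 27.9, 27.2 and 25.6 FPKM against 5.42, 4.81 and 4.99 FPKM. *Serpinb2*, a protease inhibitor gene, was next at 0.158, with 86.8, 95.1 and 93.3 FPKM against 18.3, 16.7 and 17.5 FPKM. Distances were 0.198 for *Tmeff1*, 0.219 for *Has2*, a hyaluronan synthase gene, and 0.224 for *Grina*. Since all 6 points fall in 2 groups, the distance mainly reflects the size of the group difference.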

How the data were processed

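RNA of 6 libraries of BMDMs was sequenced, 3 per group. The table the authors deposited holds FPKM, which is scaled to transcript length and to library total, for 55335 mouse Ensembl identifiers, of which 55154 (99.7%) matched GENCODE M21 (GRCm38), the source of names and positions. Per the submitters' processing notes, fastp 0.17.1, HISAT2 2.1.0, DESeq2 1.18.1 and R 3.4.3 were used. The quantifier, annotation and build are not given in the sources used here, and labels and methods name different RNA reagents, library kits and sequencers. FPKM is relative to the total of a library, so large changes of abundant genes shift all others.

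Counts could not be recovered, since only 37.3% to 40.5% of low values lay within 0.1 of a whole number of fragments, and no count test was run. Values were tested as log2(FPKM + 0.5), a scale that understates changes of low genes, with limma 3.58.1 in R 4.3.3 (eBayes with trend, two-sided, no covariates) in genes averaging 0.5 FPKM or more, with Benjamini-Hochberg adjustment over all of them. Python 3.11.15 with pandas 2.3.3, scipy 1.17.1 and matplotlib 3.10.9 served the other steps. The test was checked on simulated data.

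The members, gene lists and rule for named genes were chosen with earlier results of these data known. All 10 members, the genes of the lists and the 5 nearest genes by profile could be named. Alternatives were other pseudocounts, filters, scalings, a robust variance, the study's threshold, a replicate block and each library left out. Promoter windows came from RefSeq (GRCm38.p6). Protein sequences were not used here, and 2 genes of the lists, counted with them, are not reported here.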

Additional observations from a re-analysis of the deposited data

How the results depend on the processing

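Each of the 8 p200 genes that were lower kept its direction and its call in all 17 alternatives, or 16 for *Ifi208*, which was not tested at a mean of at least 5 FPKM. *Aim2* passed in none of them. *Ifi207* passed with median-of-ratios scaling (-0.71), with a replicate block (-0.50, adjusted p = 0.00833) and without WT replicate 3 (-0.70). The cause was not tested. The median log2 difference of the 10 genes was -2.58 with a pseudocount of 0.1, -2.08 with 1, -2.61 with median-of-ratios scaling and -2.56 as TPM, and -2.20 for the members left at a mean of at least 5 FPKM. Leaving out each library in turn gave -2.49 to -2.42, with 8 to 9 genes lower and 0 higher. Of the other genes of the locus, 2 were called, 4 without a filter and 1 at a mean of at least 5 FPKM, as fewer or more genes were tested. The study set a threshold of more than 2-fold at a p under 0.05 on DESeq2 results. The same cut, applied here to limma on log2(FPKM + 0.5) with unadjusted p, called 5 DNA sensing and inflammasome genes, 3 lower and 2 higher. Of all tested genes 5027 were called in the main test, 1485 with the study's threshold (592 lower, 893 higher) and 2739 at a mean of at least 5 FPKM, where fewer were tested (983 lower, 1756 higher). Leaving out each library gave 3489 to 5945 genes, 9 to 10 interferon signalling genes and 9 to 14 DNA sensing and inflammasome genes. Calls that were lower made up 28.0% of all calls as deposited, 50.7% with median-of-ratios, 36.4% with upper-quartile, 27.4% with TPM and 44.3% with quantile scaling. The groups share replicate numbers, but the deviations of samples with the same number correlated by 0.116, 0.036 and 0.264, so the numbers were not taken as pairs. A replicate block called 5934 genes, and not every sample correlated best with its own number. Depth limits the values of *Ifi208* in the KO-labelled libraries, which would be roughly 0.6 to 5.7 fragments at the implied depth.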
